A study of Mus musculus with 6 samples.

Results

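The Hox genes of adipose progenitors were examined through every array probe whose platform gene symbol was Hoxa, Hoxb, Hoxc or Hoxd followed by digits only. This rule found 57 probes for 38 Hox genes, among 45281 probes and 19057 named genes on the array. The cells were GFP-positive stromal-vascular cells sorted from white fat of adult AdipoTrak mice (PPARgamma-tTA;tetO-H2B-GFP), aged 2 to 6 months, in which a transactivator under Pparg control switches on a green fluorescent histone. One group was fed rosiglitazone, a thiazolidinedione drug that activates PPARgamma, at 0.0075% of normal chow for 2 months. The other received normal chow alone and is called untreated. All mice of both groups carried both transgenes. Each group comprised 3 arrays, and each array held RNA of a cohort of 3 to 4 mice. The p-values therefore measure the spread between pooled cohorts and not between single mice. Fat of 3 depots (inguinal, interscapular and gonadal) was digested for 2 hours at 37 °C for these sorts, in both groups. No array gave a single depot.

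Hox genes encode homeodomain transcription factors that give cells of the embryo their position between head and tail. They lie in clusters on separate chromosomes, and the order of the genes along a cluster follows the order of the body regions in which they act, from anterior genes with low numbers to posterior genes with high numbers. Genes with the same number in different clusters are paralogs. Mesenchymal cells of adult tissues, fat progenitors among them, keep part of the Hox pattern of the place where they arose, which is why these genes are used as marks of positional identity of fat depots.

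Total intensity ranged from 10330923 to 13615604 units on the rosiglitazone arrays and from 9478692 to 14831319 units on the untreated arrays, and a probe counted as detected where the deposited detection p-value was under 0.05. Correlations between arrays over the probes kept were 0.971 to 0.985 within groups and 0.957 to 0.974 between groups. The label of adipose progenitors was checked against 13 marker genes on the array, of which 12 were measured, among them Dcn, Lum and Pdgfra, each detected on all 6 arrays; only Cd24a was not. The mean log2 level of these markers was 10.71 to 10.79 on rosiglitazone arrays and 10.49 to 10.64 on untreated arrays, and 0 of the 12 passed the test (median log2 change 0.17). Macrophage and monocyte genes were also present, at 6.62 to 7.54 on rosiglitazone arrays and 9.22 to 9.69 on untreated arrays, and 13 of 14 measured members fell (median log2 change -2.51); Itgam, Fcgr1 and Fcer1g were not measured. Among mural cell markers 2 of 8 fell, Mcam and Notch3. Of all kept probes, 1.89% fell by the same test. The other 9 of 11 marker lists had 0 calls, which does not mean absent or even signal. Endothelial markers averaged 7.43 to 8.52 on rosiglitazone arrays and 7.93 to 8.36 on untreated arrays. Erythroid markers averaged 8.29 to 8.81 on rosiglitazone arrays and 7.94 to 11.41 on untreated arrays. In sorted bulk RNA, fewer cells of a type and less RNA per cell cannot be told apart.

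Of 38 Hox genes, 18 were detected on at least 3 arrays, a share near that of all named genes, and the central paralog groups had the highest share. Of the 57 Hox probes, 22 (38.6%) had detection on at least 3 of the 6 arrays and are called kept, beside 36.3% of all probes. These 22 probes stood for 47.4% of the Hox genes, beside 51.2% of all named genes. A further 11 genes had detection on 1 or 2 arrays at best, and 9 genes were detected on 0 arrays. On the rosiglitazone arrays 22, 25 and 26 Hox probes were detected (38.6, 43.9 and 45.6%), against 19, 22 and 23 on the untreated arrays (33.3, 38.6 and 40.4%). Over all probes the shares were 35.1, 37.2 and 37.5% on rosiglitazone arrays and 36.9, 34.2 and 38.4% on untreated arrays. The ranges of the groups overlapped. Absence of detection is no proof of a silent gene, and the files hold no probe sequences, so whether a probe can bind a paralog was not tested.

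By position, the central paralog groups (5 to 8) had the highest share of probes kept. Kept probes stood for 7 of 11 central genes, 5 of 11 anterior genes (groups 1 to 4) and 6 of 16 posterior genes (groups 9 to 13). In groups 5 to 7, kept probes stood for 6 of 8 genes. In groups 11 to 13 this was so for 1 of 9 genes, Hoxa13, which patterns the distal limb and the genital tubercle. Within the anterior groups the share was uneven. Paralog groups 1 and 3 had 0 of 3 and 0 of 9 probes kept, but groups 2 and 4 had 3 of 3 and 3 of 4. Central group 8 had 1 of 3 probes kept, and posterior groups 9 and 10 had 4 of 7 and 3 of 5. By cluster the counts were 6 of 10 Hoxa genes, 5 of 10 Hoxb genes, 3 of 9 Hoxc genes and 4 of 9 Hoxd genes.

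**Figure D1:**
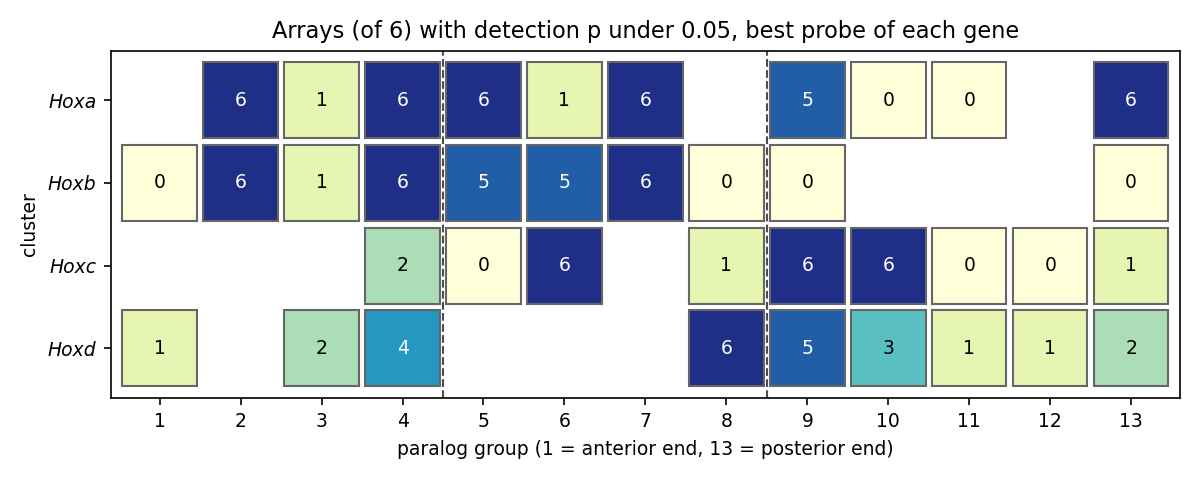
Number of the 6 arrays with a detection p-value under 0.05 for the best probe of each Hox gene, by cluster (rows) and paralog group (columns). Genes with several probes had more chances to be detected; empty cells have no gene with a probe here. Detection on all 6 arrays runs from group 2 to group 10, apart from Hoxa13, and dashed lines divide anterior, central and posterior groups.

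In the Hoxa cluster, detected and undetected genes were neighbours. Hoxa2, Hoxa4, Hoxa5 and Hoxa7 were each detected on all 6 arrays by at least 1 probe, and Hoxa9 on 5. Hoxa6, which lies between Hoxa5 and Hoxa7, was detected on 0 of 3 rosiglitazone arrays and 1 of 3 untreated arrays. All 4 probes of Hoxa3 had detection on 1 array at most, and Hoxa10 and Hoxa11 were detected on 0 arrays. In the Hoxb cluster Hoxb2, Hoxb4 and Hoxb7 were detected on all 6 arrays and Hoxb5 and Hoxb6 on 5 each. Hoxb1, a gene of the hindbrain, and Hoxb8, Hoxb9 and Hoxb13 were detected on 0 arrays, and the 4 probes of Hoxb3 on 1 array at most.

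In the Hoxc cluster, Hoxc6, Hoxc9 and Hoxc10 were detected on all 6 arrays. Their neighbours were not: Hoxc5, Hoxc11 and Hoxc12 had 0 arrays, Hoxc8 and Hoxc13 had 1 rosiglitazone array each, and Hoxc4 had 1 array in each group. In the Hoxd cluster Hoxd8 was detected on all 6 arrays, Hoxd9 on 5, Hoxd4 on 4 and Hoxd10 on 3. Hoxd1, Hoxd3, Hoxd11, Hoxd12 and Hoxd13, the last 3 of them best known from limb and genital development, were detected on 1 or 2 arrays. Just inside the limit of 3 arrays were the Hoxd10 probe, with 2 rosiglitazone arrays and 1 untreated array, and a Hoxa9 probe, with 3 rosiglitazone arrays and 0 untreated arrays. Just outside, with 2 arrays each, were the probes of Hoxc4, Hoxd3 and Hoxd13 and the second Hoxd9 probe, each with 1 array in either group.

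Probes of the same gene could disagree. Of 13 Hox genes with several probes, 3 had both kept and unkept probes. For Hoxa9 these were 2 kept and 1 not, for Hoxa13 1 kept and 2 not, and for Hoxd9 1 and 1. The detection of Hoxa13 thus rested on 1 of 3 probes. Transcripts beside the clusters that fell outside the rule, chosen after values were seen, had little signal. Hoxd3os1, Hottip and Evx2 were detected on 0 arrays, and Evx1 on 1 array of each group.

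The promoters of Hoxa5, Hoxa6 and Hoxa7 are shown because these neighbours differed in detection (6, 1 and 6 arrays). The 250 bases before each start are given 5′ to 3′ from RefSeq (GRCm38.p6), with each CG dinucleotide, the site of DNA methylation in mammals, in capitals.
Hoxa5, chr6:52204588-52204837, minus strand: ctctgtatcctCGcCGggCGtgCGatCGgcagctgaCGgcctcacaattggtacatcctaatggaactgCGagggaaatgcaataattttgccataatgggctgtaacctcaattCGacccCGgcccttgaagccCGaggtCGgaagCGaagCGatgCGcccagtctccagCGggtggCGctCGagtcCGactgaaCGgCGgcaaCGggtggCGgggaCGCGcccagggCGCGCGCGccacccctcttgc
Hoxa6, chr6:52208673-52208922, minus strand: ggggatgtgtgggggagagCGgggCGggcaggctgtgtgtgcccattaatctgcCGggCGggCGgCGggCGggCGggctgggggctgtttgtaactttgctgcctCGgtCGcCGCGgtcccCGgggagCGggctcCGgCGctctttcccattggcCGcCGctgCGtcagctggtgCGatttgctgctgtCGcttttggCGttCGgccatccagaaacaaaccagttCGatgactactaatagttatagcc
Hoxa7, chr6:52218574-52218823, minus strand: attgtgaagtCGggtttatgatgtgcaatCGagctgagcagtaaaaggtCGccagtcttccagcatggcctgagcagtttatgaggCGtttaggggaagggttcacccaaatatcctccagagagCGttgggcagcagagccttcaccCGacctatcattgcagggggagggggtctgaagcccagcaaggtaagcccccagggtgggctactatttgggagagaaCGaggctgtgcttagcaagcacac

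These stretches held 28 CG dinucleotides before Hoxa5, 24 before Hoxa6 and 7 before Hoxa7. Hoxa5 and Hoxa6, which differed in detection, both had more than Hoxa7. RefSeq promoter windows of 300 bases were matched for 22 of the Hox genes, 24 windows in all. Among the Hox genes with a kept probe, Hoxa4, Hoxb2, Hoxb5, Hoxb6, Hoxb7, Hoxc6, Hoxc9 and Hoxc10 had no window. Their promoters were not examined. The median number of CG dinucleotides was 11.5 (4 to 45) in the 10 windows of Hox genes with a kept probe, 17.5 (4 to 37) in the 14 windows of Hox genes without one, and 7 in all 32841 windows. The direct repeat of AGGTCA with 1 base between, the consensus site for PPARgamma with its partner RXR, was searched on both strands and was in 0 of 24 Hox windows and in 0.0396% of all windows. The composite site of HOX proteins with PBX cofactors (TGATNNAT, both strands) was in 4 of 24 Hox windows (16.7%), those of Hoxa2, Hoxb1, Hoxb8 and Hoxd11, and in 8.85% of all windows. These are letter matches and not measured sites.

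Whether Hox levels of the sorted cells differed with PPARgamma agonist treatment was examined next. No kept Hox probe passed the test. Of 22 kept Hox probes, 0 rose and 0 fell at an adjusted p under 0.05 (limma, Benjamini-Hochberg over all 16442 kept probes), beside 2.38% of all kept probes, of which 0.493% rose and 1.89% fell. At an unadjusted p under 0.05 there were 3 Hox probes, beside 12.1% of all kept probes. The Hoxc9 probe and a Hoxa9 probe were higher with rosiglitazone, beside 5.86% of all kept probes. A Hoxa2 probe was lower, beside 6.24%. The Hoxa9 probe was detected on 0 untreated arrays and was kept through the rosiglitazone arrays alone, so its p is not read as a result. The smallest adjusted p was 0.304, that of Hoxc9. Log2 changes ran from -0.55 to 0.62 with a median of 0.15 over the 22 probes, and the median was 0.04 over all kept probes. A p that misses the threshold does not show that levels were equal. The 95% intervals lay within a change of 2-fold in either direction for 18 of the 22 probes, and the widest bounds were 0.474-fold (Hoxa2) and 2.61-fold (Hoxa7).

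Only the Hoxa9 probe without untreated detection had no overlap between the groups, 1 of 22 probes, beside 17.2% of all kept probes (9.38% higher and 7.83% lower with rosiglitazone). This probe passed the limit through the rosiglitazone arrays alone, so a difference in its detection was built into the choice. Counts and medians over kept probes describe these probes and not all Hox genes.

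**Figure D2:**
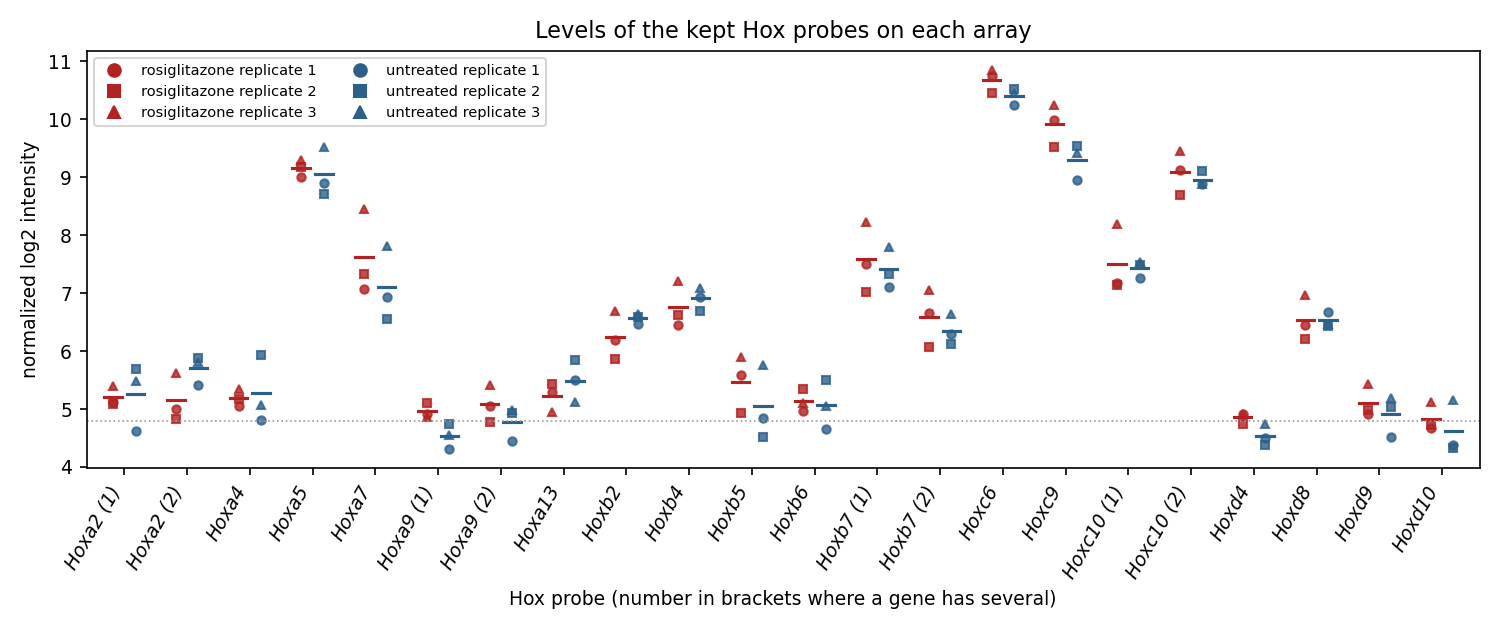
Normalized log2 intensity of the 22 kept Hox probes on each array, with rosiglitazone (red) left of untreated (blue); short bars are group means of 3 arrays and the dotted line is the highest of the lowest detected signals (4.79). Brightness is not comparable between probes. For every probe but the first of Hoxa9 the points of the groups overlap.

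The anterior genes are described first. Hoxa2, which patterns the second branchial arch and hindbrain, gave 5.0, 4.83 and 5.63 log2 units on rosiglitazone arrays and 5.42, 5.89 and 5.81 on untreated arrays by its brighter probe. The groups overlapped through rosiglitazone replicate 3, and the log2 change was -0.55 (SE 0.24, adjusted p = 0.375 in limma). Its other kept probe had a log2 change of -0.06 and was detected on 2 of 3 untreated arrays. Hoxa4 was at 5.06, 5.17 and 5.35 on rosiglitazone arrays and 4.81, 5.94 and 5.07 on untreated arrays, with untreated replicates at both ends of the range.

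Hoxb2 gave 6.19, 5.86 and 6.69 on rosiglitazone arrays against 6.48, 6.59 and 6.65 on untreated arrays. Rosiglitazone replicates stood above and below all untreated ones (log2 change -0.33, adjusted p = 0.632). Hoxb4, which expands blood stem cells when overexpressed, gave 6.44, 6.63 and 7.21 on rosiglitazone arrays against 6.94, 6.69 and 7.09 on untreated arrays (log2 change -0.15). Hoxd4 was detected on 3 rosiglitazone arrays, at 4.91, 4.75 and 4.92, and on 1 of 3 untreated arrays, at 4.49, 4.38 and 4.75, with a log2 change of 0.32 (adjusted p = 0.531).

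Among the central genes, Hoxa5, which in the mouse shapes the skeleton of neck and upper chest and the lung, gave 9.01, 9.17 and 9.30 log2 units on rosiglitazone arrays and 8.91, 8.71 and 9.53 on untreated arrays. The untreated replicates spanned the rosiglitazone ones, and the log2 change was 0.11 (SE 0.23, adjusted p = 0.898). Hoxa7 had the widest spread of any kept Hox probe over the 6 arrays (1.91 log2 units). It was at 7.08, 7.33 and 8.46 on rosiglitazone arrays and 6.93, 6.55 and 7.82 on untreated arrays, so replicate 3 was the highest in either group. Its log2 change was 0.52 (SE 0.39, adjusted p = 0.672), and it ranged from 0.10 without rosiglitazone replicate 3 to 0.88 without untreated replicate 3.

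Hoxb5 had a log2 change of 0.43 (adjusted p = 0.691; 0.18 without untreated replicate 2 and 0.76 without untreated replicate 3), with 5.59, 4.93 and 5.90 on rosiglitazone arrays and 4.85, 4.52 and 5.77 on untreated arrays; again replicate 3 was the highest of each group. Hoxb6 was at 4.96, 5.34 and 5.10 on rosiglitazone arrays and 4.65, 5.51 and 5.06 on untreated arrays. Both Hoxb7 probes were highest on rosiglitazone replicate 3 and lowest on rosiglitazone replicate 2. The brighter gave 7.50, 7.02 and 8.23 on rosiglitazone arrays against 7.11, 7.32 and 7.79 on untreated arrays, and the log2 changes of the pair were 0.17 and 0.24 (adjusted p = 0.883 and 0.783).

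Hoxc6, a gene of the thoracic region, gave 10.74, 10.45 and 10.86 log2 units on rosiglitazone arrays and 10.25, 10.52 and 10.46 on untreated arrays. Its spread over the 6 arrays was 0.61, and its log2 change was 0.27 (SE 0.18, adjusted p = 0.625). Hoxd8 gave 6.46, 6.20 and 6.96 on rosiglitazone arrays and 6.68, 6.44 and 6.47 on untreated arrays, a log2 change of 0.01 (adjusted p = 0.993).

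Of the posterior genes, Hoxc9 had the largest change among the kept Hox probes. It was at 9.99, 9.52 and 10.24 log2 units on rosiglitazone arrays and 8.95, 9.53 and 9.43 on untreated arrays. Rosiglitazone replicates 1 and 3 lay above every untreated array, and replicate 2 lay just under untreated replicate 2. The means were 9.92 ± 0.36 with rosiglitazone and 9.30 ± 0.31 untreated (SD, n = 3 each), a 1.53-fold difference with a 95% interval of 1.07 to 2.19 that did not pass over all probes (adjusted p = 0.304 in limma). Hoxc9 is listed among the genes reported as higher in subcutaneous than in visceral fat.

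Hoxc10, a lumbar gene also tied to subcutaneous fat, did not pass by either probe. Its brighter probe gave 9.12, 8.69 and 9.45 on rosiglitazone arrays against 8.89, 9.10 and 8.89 on untreated arrays, and the log2 changes were 0.12 and 0.07 (adjusted p = 0.882 and 0.951). Rosiglitazone replicate 3 was the highest and rosiglitazone replicate 2 the lowest array for both.

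The Hoxa9 probe detected on 3 rosiglitazone arrays and 0 untreated arrays was at 4.91, 5.10 and 4.87 log2 units with rosiglitazone and at 4.31, 4.73 and 4.56 untreated. Since it was kept through the rosiglitazone arrays alone, its fold, p and interval are not read as a result. The brighter Hoxa9 probe, detected on 3 rosiglitazone and 2 untreated arrays, had a log2 change of 0.30 (adjusted p = 0.665). Hoxa13 was at 5.30, 5.43 and 4.95 on rosiglitazone arrays and 5.50, 5.84 and 5.12 on untreated arrays, with replicate 3 the lowest of each group (log2 change -0.26, adjusted p = 0.724). Hoxd9 gave 4.91, 4.98 and 5.42 on rosiglitazone arrays and 4.51, 5.04 and 5.19 on untreated arrays (log2 change 0.19, adjusted p = 0.808). Hoxd10, near background, gave 4.67, 4.72 and 5.12 against 4.38, 4.33 and 5.16 (log2 change 0.21, adjusted p = 0.806). Replicate 3 was the highest of each group for both genes.

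The signs of the differences were unevenly spread over position. Of 6 anterior probes 5 had a negative log2 change (median -0.11), while 15 of 16 central and posterior probes had a positive one (medians 0.21 and 0.20), beside 55.7% positive over all kept probes. None of these changes passed the test, the 16 probes share arrays and stand for 13 genes, and no test of position was made. The 16 include the Hoxa9 probe kept through the rosiglitazone arrays alone and others detected on more rosiglitazone than untreated arrays. The choice of probes could thus favour positive signs. Of the 22 probes, 7 of 8 detected on 3 to 5 arrays were positive, and 9 of 14 detected on all 6. By position, those 14 gave 9 of 10 central and posterior probes positive and 4 of 4 anterior ones negative. Over all Hox probes, with no filter, 25 of 38 central and posterior probes were positive and 15 of 19 anterior ones negative. The median was 0.01 over the 57. Of these 57 probes 35 were not kept and 21 were detected on 0 arrays, and of the 19 anterior ones 6 were kept. Many of the unfiltered signs thus come from probes at background, and their counts are no check of the spread over position. With array weights the count of positive central and posterior probes was 11 of 16. Without rosiglitazone replicate 3 the count of positive central and posterior probes was 11 of 16, and the median of the 22 probes was 0.02. Without untreated replicate 1 the count was 12 of 16 and the median 0.06, and without untreated replicate 2 the anterior count was 3 of 6. The median was 0.26 without rosiglitazone replicate 2 and 0.31 without untreated replicate 3.

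**Figure D3:**
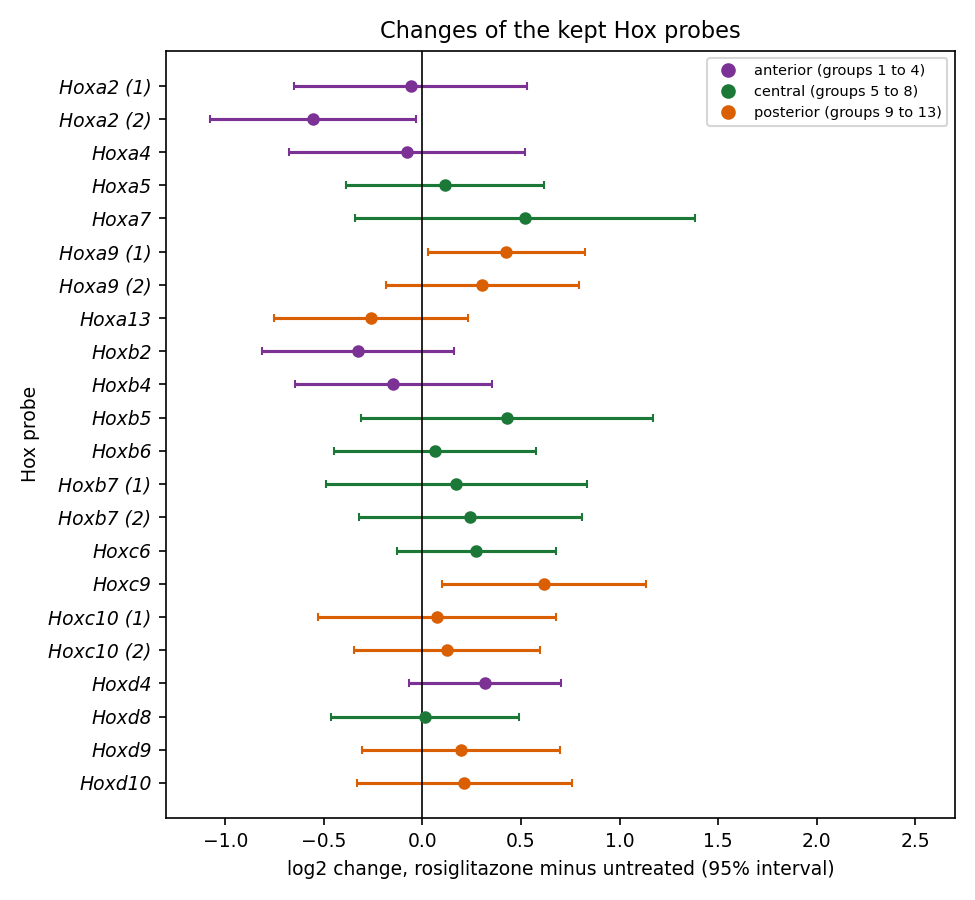
Log2 change of each kept Hox probe, rosiglitazone minus untreated, with its 95% interval from limma (3 arrays per group), ordered by cluster and coloured by position. The intervals of 19 of the 22 probes cross 0. Those of a Hoxa2, a Hoxa9 and the Hoxc9 probe do not, and none passed after adjustment over all probes. This Hoxa9 probe was kept through the rosiglitazone arrays alone, so its interval is not read as a result.

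One array stood apart in the Hox levels. Rosiglitazone replicate 3 was the highest array for 14 of 22 kept Hox probes (63.6%), beside 21.2% of all kept probes. It was above the probe's mean over the 6 arrays for 20 of 22 probes, with a median deviation of 0.38 log2 units. The medians of rosiglitazone replicates 1 and 2 were -0.07 and -0.12, and those of the untreated replicates were -0.32, -0.02 and 0.12. Untreated replicate 1 was the lowest array for 8 probes (36.4%, beside 17.3% of all kept probes).

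Markers of other cell types also differed between this array and the other rosiglitazone arrays. The endothelial markers averaged 8.52 log2 units there. They averaged 7.43 and 7.52 on rosiglitazone replicates 1 and 2 and 7.93 to 8.36 on untreated arrays, over 12 measured of 13 (Erg was not measured). Macrophage markers were at their lowest there, 6.62, with 7.45 and 7.54 on rosiglitazone replicates 1 and 2. Mesothelial markers averaged 5.14 there, 6.15 and 5.86 on rosiglitazone replicates 1 and 2, and 5.09 to 5.34 on untreated arrays, over 4 measured of 7. The part of these cell types in the Hox levels was not tested.

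**Figure D4:**
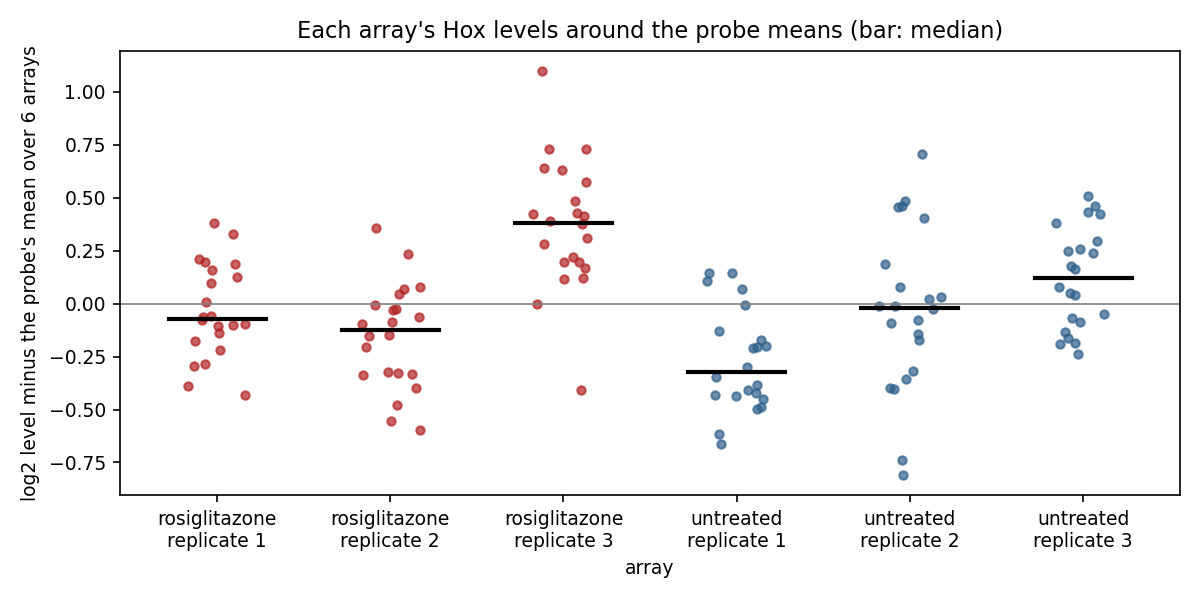
Deviation of each kept Hox probe from its own mean over the 6 arrays, in log2 units, by array (rosiglitazone red, untreated blue; 22 points per array; black bar, median). Rosiglitazone replicate 3 has 20 of 22 points above 0 and untreated replicate 1 has 4.

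Genes that earlier work reported as differing between fat depots are described beside the Hox genes. Of 7 measured subcutaneous genes, Hoxc9 and Hoxc10 among them, 0 passed (median log2 change 0.22), beside 2.38% of all kept probes. Without the Hox genes the 5 others averaged 7.17, 7.28 and 7.97 on rosiglitazone arrays and 7.16, 7.23 and 7.19 on untreated arrays, with rosiglitazone replicate 3 the highest. It was also the highest rosiglitazone array for 4 of these 5 genes, all but Prrx1, and Irx3 and Sfrp2 were chosen as examples after their values were seen. The homeobox gene Irx3 gave 6.83, 7.16 and 8.28 on rosiglitazone arrays and 6.54, 7.27 and 6.55 on untreated arrays, and the secreted Wnt modulator gene Sfrp2 gave 7.78, 8.43 and 9.39 against 8.67, 8.47 and 8.34. The homeobox gene En1 had a log2 change of 0.37 (adjusted p = 0.526). Of 6 measured visceral genes, Hoxa5 among them, 0 passed (median 0.14). The mesothelial gene Upk3b, which gave 7.88, 7.73 and 6.21 on rosiglitazone arrays and 6.07, 5.55 and 6.56 on untreated arrays, had the smallest p of them (log2 change 1.21, adjusted p = 0.242). The thrombomodulin gene Thbd, the brightest, had a log2 change of -0.08, and Gpc4, which encodes a glypican, 0.29. Because each array held RNA from 3 depots, a change within cells and a change in the share of depots cannot be told apart.

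Partners and regulators of HOX proteins did not pass either, while 2.38% of all kept probes did. Absence of overlap between groups was seen for 17.2% of all kept probes. HOX proteins bind DNA together with TALE homeodomain cofactors, and of 5 measured cofactor genes 0 passed (median log2 change 0.19). Meis2 gave 9.26, 9.55 and 9.56 on rosiglitazone arrays and 9.12, 9.13 and 9.19 on untreated arrays, without overlap (log2 change 0.31, adjusted p = 0.526). Meis1 had a log2 change of 0.22 (adjusted p = 0.731), and Pbx3, Pbx4 and Meis3 were not measured. Polycomb proteins keep Hox genes silent and trithorax proteins keep them active. Of 15 Polycomb genes 0 passed (median 0.02), with Suz12 at -0.01 and Pcgf1 at 0.44 (adjusted p = 0.994 and 0.361), and Rbbp7 and Cbx6 at 0.41 each. Of 11 genes listed as trithorax, demethylase or related 0 passed (median -0.01). The methyltransferase gene Dot1l, which is neither a trithorax nor a demethylase gene, had the smallest p among them. It was lower without overlap, at 5.62, 5.52 and 5.42 on rosiglitazone arrays and 5.93, 6.04 and 5.99 on untreated arrays. Its log2 change was -0.47 (adjusted p = 0.251 in limma), and Wdr5 came next (-0.44, adjusted p = 0.436). The demethylase gene Kdm6a had a log2 change of 0.02 and the methyltransferase gene Kmt2a one of -0.01.

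Of 16 upstream regulators on the array 8 were measured and 0 passed (median -0.08), beside 2.38% of all kept probes. The zinc finger gene Egr2 acts on Hox genes in the hindbrain, and such a role was not tested in these fat cells. It gave 11.39, 11.46 and 11.66 on rosiglitazone arrays and 10.89, 11.12 and 11.18 on untreated arrays. The groups did not overlap (log2 change 0.44, adjusted p = 0.327 in limma). Aldh1a2, which makes retinoic acid, had a log2 change of -0.40 (adjusted p = 0.518) and Ctcf, a chromatin boundary factor gene, one of -0.14. Cdx1, Cdx2 and Cdx4, which set Hox expression in the embryo's trunk, were not measured.

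Among other transcription factors of position, Alx4 had a smaller adjusted p than any Hox probe. Of 42 members on the array 18 were measured and 0 of these passed, beside 2.38% of all kept probes. Of the 18 changes 13 were positive (median log2 change 0.23), beside 55.7% over all kept probes. Absence of overlap between groups was seen for 17.2% of all kept probes. Alx4, a homeobox gene of skull and limb patterning, gave 9.98, 9.29 and 9.43 on rosiglitazone arrays and 8.37, 8.91 and 8.59 on untreated arrays. The groups did not overlap, and the log2 change was 0.95 (SE 0.23, adjusted p = 0.066). The homeobox gene Irx2 gave 6.19, 6.24 and 6.35 on rosiglitazone arrays and 5.48, 5.57 and 5.84 on untreated arrays, also without overlap (log2 change 0.63, adjusted p = 0.119). Meox1, a gene of somite development that was chosen after its values were seen, had the largest change of the list and ran the other way. It gave 6.69, 5.34 and 6.73 on rosiglitazone arrays and 7.46, 7.76 and 6.89 on untreated arrays, without overlap (log2 change -1.12, adjusted p = 0.209). Gata6 had a log2 change of 0.34 and Tcf21 one of -0.10. The part of the lower macrophage signal in these differences was not tested.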

How the data were processed

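Gene expression was measured in 6 samples, 3 per group, on Illumina mouse bead arrays with biotinylated cRNA, per the labels' protocols. The deposited non-normalized table gives each probe's intensity on a linear scale, with no background subtracted as its values show, with a deposited detection p-value beside it. The authors also deposited normalized intensity, by a method not given in the sources used here; the deposited series table equals it (largest difference 0). Depth does not apply to arrays, whose number limits the precision.

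For the non-normalized values, normexp background correction used these detection p-values (offset 16); values were then put on a log2 scale and quantile normalized (limma 3.58.1, R 4.3.3). Probes with detection p under 0.05 on at least 3 arrays were kept (16442). Groups were compared with lmFit and eBayes, with no covariates and Benjamini-Hochberg adjustment over all kept probes at 0.05. Log2 changes understate those of dim probes. Gene names came from the platform annotation (34885 probes with 1 symbol, 18 with several, 10378 unnamed here), and all 57 Hox probes matched RefSeq by Entrez number. The brightest kept probe stood for a gene. Every kept Hox probe is named; of each list, the genes with the smallest p or the brightest probes. The members, 7 gene lists and 11 marker lists were chosen with earlier results of these data known, and no list was tested. The code was tested on simulated data. Alternatives covered background, normalization, source table, filter, variance, weights, replicate block, threshold and each array left out; a bead chip block was not run, since the files identify no chip.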

Additional observations from a re-analysis of the deposited data

How the results depend on the processing

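No Hox probe passed the threshold under any of 19 other settings (0 in each, leaving out each array included). The smallest adjusted p of a Hox probe over these settings was 0.096, for Hoxa2 without rosiglitazone replicate 3. The count over all probes was 392, and was 260 with median scaling, 157 without a filter, 214 at an adjusted p of 0.01 and 220 to 446 with each array left out. The number of kept Hox probes was 14 with detection required on all 6 arrays and 57 without a filter. The median Hox change of 0.15 ranged from 0.02 to 0.31 with each array left out; it was 0.011 without a filter, 0.063 with array weights, 0.092 without background correction or from the authors' table, 0.094 with detection required on all 6 arrays or at p under 0.01, and 0.098 at an offset of 50. Of 18 Hox genes, 10 kept the sign of their change under every setting in which they were measured, Hoxc9, Hoxc6, Hoxa7 and Hoxa2 among them. The filter, variance and replicate block settings leave the log2 change of a probe as in the main fit, so they could not reverse a sign. Hoxa9, Hoxb5, Hoxd4 and Hoxd10, also among the 10, were not kept under some filters. With median scaling Hoxd8 was at -0.0026, and with array weights Hoxb7 was at -0.054, Hoxc10 at -0.046 and Hoxd8 at -0.17. With each array left out, Hoxa4 ranged from -0.30 to 0.27, Hoxa5 from -0.058 to 0.35, Hoxb4 from -0.37 to 0.010, Hoxb6 from -0.15 to 0.30, Hoxb7 from -0.15 to 0.45, Hoxc10 from -0.057 to 0.32, Hoxd8 from -0.20 to 0.18 and Hoxd9 from -0.0061 to 0.31. Without a change of sign, Hoxa2 ranged from -0.78 to -0.38, Hoxb2 from -0.55 to -0.13, Hoxa9 (brighter probe) from 0.13 to 0.45, Hoxa13 from -0.43 to -0.09, Hoxd10 from 0.07 to 0.45 and Hoxc9 from 0.44 to 0.81. The cause was not tested. Same-numbered arrays of the groups had correlations of 0.05, -0.0057 and 0.35 between their deviations from the group means. The other pairs of arrays had -0.30 to 0.27, so that of replicate 3 was the highest. The labels state no pairing, and 3 arrays per group cannot settle whether same-numbered arrays share an origin. With the replicate block 475 probes passed, 0 of them Hox, and Hoxa7 had an adjusted p of 0.244 in limma. Signal near background limits what can be said of Hoxa9, Hoxd4, Hoxd9 and Hoxd10. The same holds for Hoxa2, Hoxa4, Hoxa13, Hoxb5 and Hoxb6, whose brightest kept probes had means of 5.10 to 5.43 log2 units over the arrays. The log2 change of Hoxa2 was -0.55 in the main fit and -0.20 without background correction.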
